A study of Mus musculus with 11 samples.

Results

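The RAS-MAPK feedback genes are 10 genes that cells switch on when signalling through RAS and the kinase ERK is active, and most of whose products then damp that signalling. They were taken by symbol from the count table: the Sprouty genes Spry1, Spry2 and Spry4, the Sprouty-related genes Spred1, Spred2 and Spred3, the phosphatase genes Dusp4 and Dusp6, and the Ets transcription factor genes Etv4 and Etv5. All 10 were found among the 27687 genes of the table, and all 10 passed the filter on low counts that left 16241 genes for testing. They were measured by RNA sequencing in 11 mouse high-grade gliomas, 9 with prolonged Ezh2 knockdown (KD 1 to KD 9) and 2 control tumours without knockdown (Control 1 and Control 2). Every tumour grew in the brain of an immunodeficient NOD-SCID mouse from injected glioma initiating cells. These cells began as subventricular zone neural stem cells from 7-day-old compound conditional mice, whose alleles, p53, Ink4a/Arf and LucR among them, lentiviral CMV-Cre recombined in culture. Cells of both groups thus carried the same engineered alleles and the same doxycycline-responsive hairpin FH1-tUTG-shEzh2, and had been sorted for GFP. Hosts drank doxycycline or went without it according to the design text, whereas the treatment field lists 2 mg/ml doxycycline with 1% sucrose for every tumour, so that effects of drug and knockdown cannot be told apart. No label says how many cell preparations the tumours came from, and p-values therefore measure the spread between these samples only.

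In the RAS-MAPK cascade, receptor tyrosine kinases recruit exchange factors that load RAS proteins with GTP, RAS activates the RAF, MEK and ERK kinases in turn, and ERK changes transcription. Sprouty and Spred proteins act back on the steps between receptor and RAF, the Dusp phosphatases remove the activating phosphates from ERK and related kinases, and Etv4 and Etv5 carry the signal on as transcription factors. Capicua, a DNA-binding repressor that ERK relieves, is known to hold Etv and other feedback genes down through short octamers. In glioma the RAS pathway is commonly active, and mRNA of these genes is widely read as a report of ERK output, although mRNA does not measure phosphorylated ERK.

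Start regions are shown for both genes that changed, Spry1 and Spred3, and for the genes whose start regions held a Capicua octamer. The sequences are those of RefSeq on GRCm38.p6, a later build than the mm9 of the count table, and run 5′ to 3′ on the gene's strand from 250 bases before to 50 bases after the gene's start. Entries were matched for 7 of the 10 genes, with 8 start regions, since Etv5 has 2. Capitals mark matches, on either strand, to the octamers TGAATGAA, TGAATGGA, TCAATGAA and TCAATGGA or to the wider forms TGAATGAG, TGAATGGG, TCAATGAG and TCAATGGG.
Spry1 (chr3:37639697-37639996, plus strand): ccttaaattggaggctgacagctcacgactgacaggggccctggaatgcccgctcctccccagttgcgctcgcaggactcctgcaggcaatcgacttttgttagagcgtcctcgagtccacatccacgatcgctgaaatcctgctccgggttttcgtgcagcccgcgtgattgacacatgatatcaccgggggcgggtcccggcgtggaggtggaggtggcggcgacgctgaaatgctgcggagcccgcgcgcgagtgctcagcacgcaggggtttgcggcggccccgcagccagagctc
Spred3 (chr7:29168598-29168897, minus strand): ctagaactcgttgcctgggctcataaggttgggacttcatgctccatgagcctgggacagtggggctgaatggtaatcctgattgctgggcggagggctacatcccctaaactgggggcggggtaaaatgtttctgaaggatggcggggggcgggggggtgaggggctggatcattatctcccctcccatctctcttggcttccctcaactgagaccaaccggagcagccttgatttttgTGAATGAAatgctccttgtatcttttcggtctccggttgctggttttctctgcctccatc
Dusp6 (chr10:99262981-99263280, plus strand): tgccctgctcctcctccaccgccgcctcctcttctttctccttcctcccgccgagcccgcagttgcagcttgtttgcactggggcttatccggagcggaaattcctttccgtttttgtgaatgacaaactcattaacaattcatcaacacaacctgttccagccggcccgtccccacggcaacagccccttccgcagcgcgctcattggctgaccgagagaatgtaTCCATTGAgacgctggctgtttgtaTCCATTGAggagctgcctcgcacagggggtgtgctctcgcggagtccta
Spry2 (chr14:105896770-105897069, minus strand): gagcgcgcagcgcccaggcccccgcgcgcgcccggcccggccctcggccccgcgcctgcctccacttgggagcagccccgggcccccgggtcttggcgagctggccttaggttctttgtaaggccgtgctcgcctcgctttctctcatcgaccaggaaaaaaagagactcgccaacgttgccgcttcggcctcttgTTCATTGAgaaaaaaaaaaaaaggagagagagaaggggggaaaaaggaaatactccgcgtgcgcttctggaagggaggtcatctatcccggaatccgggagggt
Etv5 (chr16:22438319-22438618, minus strand): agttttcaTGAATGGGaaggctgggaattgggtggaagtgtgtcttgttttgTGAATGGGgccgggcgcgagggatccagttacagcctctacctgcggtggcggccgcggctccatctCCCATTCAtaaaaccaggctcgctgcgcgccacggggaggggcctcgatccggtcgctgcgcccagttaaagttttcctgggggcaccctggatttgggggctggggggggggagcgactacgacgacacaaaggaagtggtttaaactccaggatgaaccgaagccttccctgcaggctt

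The narrow octamer was found in Spred3 at base -10 and in Spry2 at base -54, counted from the gene's start to the match's first base. Dusp6 held it at -24 and again at 2. Among 32851 RefSeq mouse start regions of that length, 3.84% held a narrow octamer. The wider form, added after the start regions had been seen, was found 3 times in the second Etv5 region, at -242, -198 and -131. It was found in 3.44% of all start regions, but a form chosen this way cannot be tested against that share. Spry1, Spred1, Spred2 and the first Etv5 region held neither form. The Ets site CCGGAAGT (3.89% of all regions), the cAMP response element TGACGTCA (1.79%) and the TATA box TATAAA (13.6%) had no match in any of the 8 regions, while CCAAT (37.4%) or GGGCGG (35.7%) matched in 7 of them. No Capicua match overlapped another of these motifs. The matches are letters in a window and show no binding. Capicua's own gene, Cic, was named after its values had been seen. It had between 142 and 259 CPM in the KD tumours, against 310 and 240 CPM in the controls, and did not pass the test (log2 fold change -0.53 ± 0.19 SE, edgeR quasi-likelihood test, adjusted p = 0.061). CPM are counts scaled to the size of each library after TMM normalization, which corrects for RNA composition.

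The libraries held between 11209233 and 18638382 counts, and each of the 10 genes had between 744 and 25843 reads in each library, so that counting error is small beside the spread between tumours. Ezh2 itself had between 7.27 and 30.4 CPM in the KD tumours, against 45.3 and 52.7 CPM in the controls (log2 fold change -1.59 ± 0.44 SE, adjusted p = 0.023), a call lost without Control 1 (adjusted p = 0.11) or Control 2 (adjusted p = 0.14). KD 7 and KD 9 stood apart from the other KD tumours, at 44.1 and 56.6 on the second principal component, where the other 9 libraries lay between -33.2 and 1.78. Xist reads were all but absent from KD 1, KD 7, KD 8 and KD 9, at no more than 1.10 CPM, while the other 5 KD tumours had 41.4 to 106 CPM and the controls 74.2 and 131 CPM. The labels do not give the sex of hosts or donors. Results that rest on KD 7 and KD 9 are given with and without them.

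**Figure D1:**
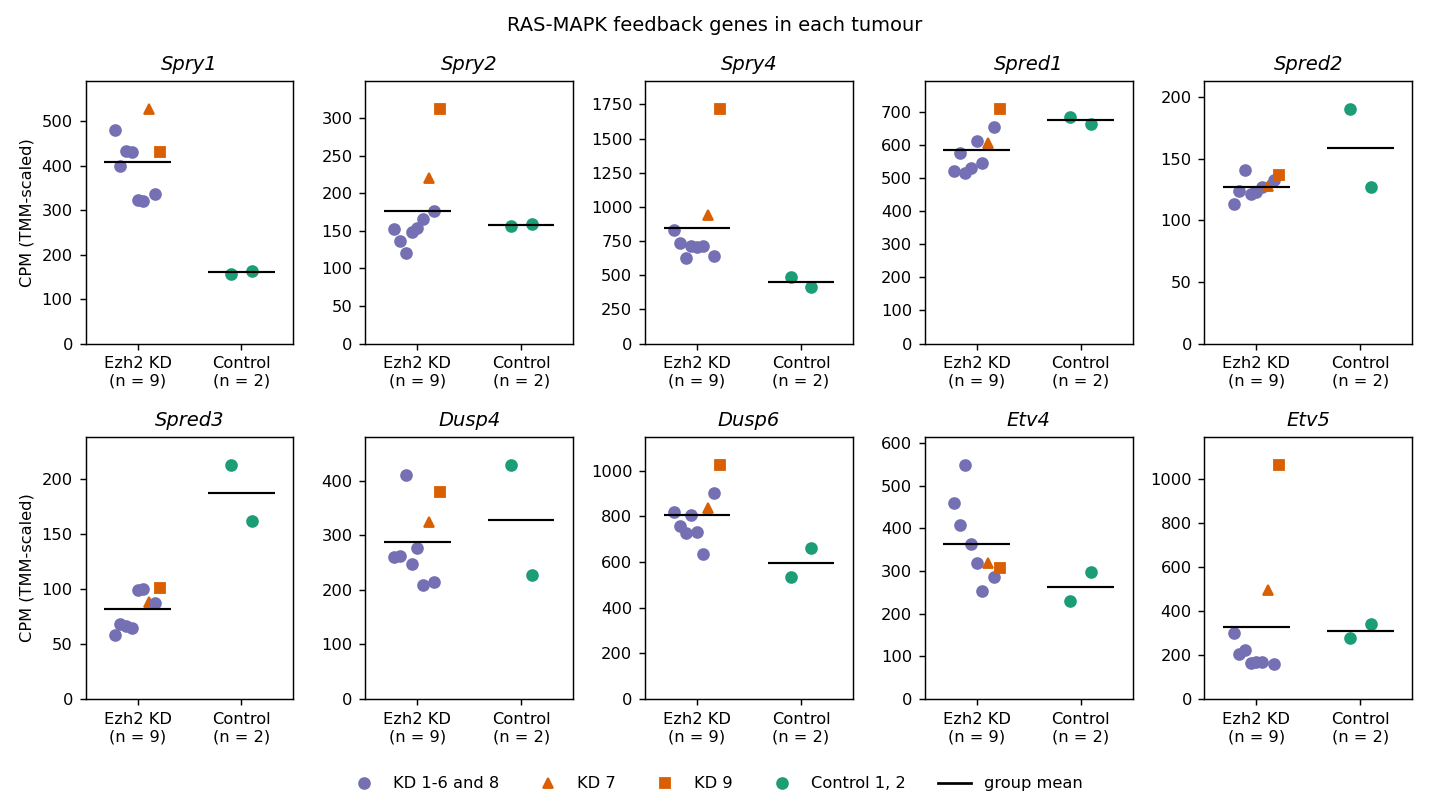
TMM-scaled CPM (vertical axes, each from 0) of the 10 feedback genes in each tumour, with Ezh2 KD tumours at left (n = 9) and control tumours at right (n = 2), and group means as lines. The triangle is KD 7 and the square KD 9. Spry1 lies higher and Spred3 lower in all 9 KD tumours than in both controls, and KD 9 stands far above the other KD tumours for Spry4 and Etv5.

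One feedback gene rose and one fell. Spry1 rose 2.55-fold and Spred3 fell 2.30-fold in the knockdown tumours, and the other 8 did not pass the test. Of the 10 genes, 1 was thus called higher, where 10.3% of all tested genes were, and 1 lower, where 13.0% were. Taken in both directions, 23.3% of all tested genes were called, so that the number of calls among the feedback genes was near the background. The median log2 fold change of the 10 genes was 0.12, against 0.066 over all tested genes. In 3 of the 10 the values of the 9 KD tumours and both controls did not overlap, Spry1 and Spry4 lying above and Spred3 below. Over all tested genes, 27.2% did not overlap, 13.3% with the KD tumours above and 13.8% with them below.

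Spry1, which encodes a membrane-associated inhibitor of receptor tyrosine kinase signalling, was the one feedback gene that rose. The gene (ENSMUSG00000037211) spans bases 37538869 to 37543520 of chromosome 3 in mm9. It had between 320 and 527 CPM in the KD tumours, with a median of 430 CPM, against 157 and 164 CPM in the controls. Every KD tumour was higher than both controls. The log2 fold change was 1.35 ± 0.21 (SE, adjusted p = 0.0011 by the same edgeR test). Within the KD group the values were uneven: KD 5, KD 6 and KD 8 had 323, 320 and 337 CPM, and the other 6 tumours between 399 and 527 CPM.

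Spred3 was the one that fell. It encodes the family member that lacks a functional KIT-binding domain. The gene (ENSMUSG00000037239) spans bases 29943848 to 29954860 of chromosome 7 in mm9. It had between 58.3 and 101 CPM in the KD tumours, with a median of 87.4 CPM, against 213 and 162 CPM in the controls. No KD tumour reached either control, and the log2 fold change was -1.20 ± 0.20 (SE, adjusted p = 0.0021). KD 1 to KD 4 had 58.3 to 68.2 CPM, and KD 5 to KD 9 had 87.4 to 101 CPM, with no tumour between. With Control 1 left out the fold change of Spred3 was -0.99 (adjusted p = 0.0499), and with Control 2 left out it was -1.39 (adjusted p = 0.0080). For Spry1 the corresponding values were 1.32 (adjusted p = 0.022) and 1.38 (adjusted p = 0.015).

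Markers of some cell populations also differed between the groups. All 8 neutrophil markers were called lower, summing to between 2.45 and 9.43 CPM in the KD tumours, against 209 and 62.8 CPM in the controls. Of 12 macrophage and microglia markers 9 were called lower, with sums of 440 to 1102 CPM in the KD tumours, against 1009 and 2166 CPM in the controls. Of 8 markers of myelinating oligodendrocytes, of which Opalin was under the filter, 3 were called higher, with sums of 189 to 406 CPM in the KD tumours, against 53.9 and 26.7 CPM in the controls. Of 11 endothelial and pericyte markers 3 were called higher (213 to 555 CPM in the KD tumours, against 217 and 350 CPM in the controls), and of 9 neuronal markers 3 (61.3 to 382 CPM in the KD tumours, against 206 and 141 CPM in the controls). Of 7 precursor markers of the oligodendrocyte lineage 3 were called higher and 2 lower (115 to 311 CPM in the KD tumours, against 197 and 239 CPM in the controls), and none of 8 astrocyte markers was called (579 to 1514 CPM in the KD tumours, against 924 and 937 CPM in the controls). The 7 markers of neural stem and glioma cells, of which 4 (Nes, Sox2, Vim and Cd44) were called lower, summed to 2428 to 4033 CPM in the KD tumours, against 7832 and 6800 CPM in the controls. No marker was at 0 in all libraries. Mitochondrially encoded genes, whose share can vary with RNA quality, took 3.43% to 13.5% of the counts in the KD tumours, against 4.28% and 5.45% in the controls, and 6 of the 9 KD tumours lay above both controls. In bulk tumours, fewer cells of a type and less RNA per cell cannot be told apart, and the part of these populations and of the mitochondrial share in the changes of Spry1 and Spred3 was not tested.

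The other Sprouty genes did not pass the test. Spry4, an inhibitor of the same receptor pathways, had between 629 and 1715 CPM in the KD tumours, with a median of 714 CPM, against 484 and 414 CPM in the controls. All 9 KD tumours lay above both controls, but the spread was large, since KD 9 alone had 1715 CPM and KD 7, the next, 940 CPM. Its log2 fold change was 0.92 ± 0.35 (SE, adjusted p = 0.080). Without KD 9 the spread narrowed, and Spry4 passed at a smaller fold change of 0.72 (adjusted p = 0.012). Without both KD 7 and KD 9 it passed at 0.63 (adjusted p = 0.0089), and with either control left out it did not pass (adjusted p = 0.25 and 0.32).

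Spry2, the remaining Sprouty gene measured, had between 121 and 312 CPM in the KD tumours, with a median of 154 CPM, against 156 and 159 CPM in the controls. The groups overlapped, with KD 9 at 312 CPM and KD 7 at 220 CPM above the rest. The log2 fold change was 0.16 ± 0.29 (SE, adjusted p = 0.72), and -0.091 without KD 7 and KD 9. Levels of different genes were compared as RPKM, CPM per kilobase of merged exons. Spry2 made up 17.1% to 25.2% of the summed RPKM of the 3 Sprouty genes in the KD tumours, against 32.4% and 34.6% in the controls. The share of Spry1 was between 22.5% and 43.9% in the KD tumours, against 23.4% and 25.7% in the controls. KD 9 was the KD tumour with the lowest Spry1 share and the highest Spry4 share, 54.8%.

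Spred1 and Spred2 did not pass the test either. Spred1, whose product brings neurofibromin to the membrane to switch RAS off, had between 513 and 707 CPM in the KD tumours, with a median of 574 CPM, against 685 and 662 CPM in the controls. KD 9 lay above both controls and the other 8 KD tumours below both (log2 fold change -0.20 ± 0.14 SE, adjusted p = 0.31). Spred2, a related inhibitor, had between 113 and 141 CPM in the KD tumours, with a median of 127 CPM, against 190 and 127 CPM in the controls. Control 1 lay above all KD tumours and Control 2 within their range. The log2 fold change was -0.32 ± 0.13 (SE, adjusted p = 0.10), 0.00046 without Control 1 and -0.58 without Control 2, where it passed (adjusted p = 0.020). Spred1 held most of the family's RPKM, with 64.8% to 69.5% in the KD tumours, against 57.2% and 64.6% in the controls. Spred3 held 8.47% to 13.0% in the KD tumours, against 19.4% and 17.2% in the controls.

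The phosphatase genes did not pass. Dusp6 encodes the cytoplasmic phosphatase selective for ERK and had the highest RPKM of the 10 genes in both groups, by the KD median and the control mean. It had between 637 and 1026 CPM in the KD tumours, with a median of 804 CPM, against 534 and 659 CPM in the controls. The groups overlapped in 1 tumour, KD 6, which was lower than Control 2. Its log2 fold change was 0.43 ± 0.18 (SE, adjusted p = 0.097). The 4 KD tumours without Xist reads had 817 to 1026 CPM and the 5 with them 637 to 804 CPM. In every other feedback gene the ranges of these sets of KD tumours overlapped. How many of all tested genes split by Xist was not counted. In the 7 libraries with Xist reads alone the log2 fold change of Dusp6 was 0.27 ± 0.14 (adjusted p = 0.18). Dusp4, a nuclear phosphatase of ERK and related kinases, had between 209 and 410 CPM in the KD tumours, with a median of 262 CPM, against 429 and 227 CPM in the controls. Control 1 lay above all 9 KD tumours and Control 2 above 2 of them, KD 6 and KD 8. The log2 fold change of -0.19 ± 0.27 (SE, adjusted p = 0.64) became 0.33 without Control 1 and -0.58 without Control 2.

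**Figure D2:**
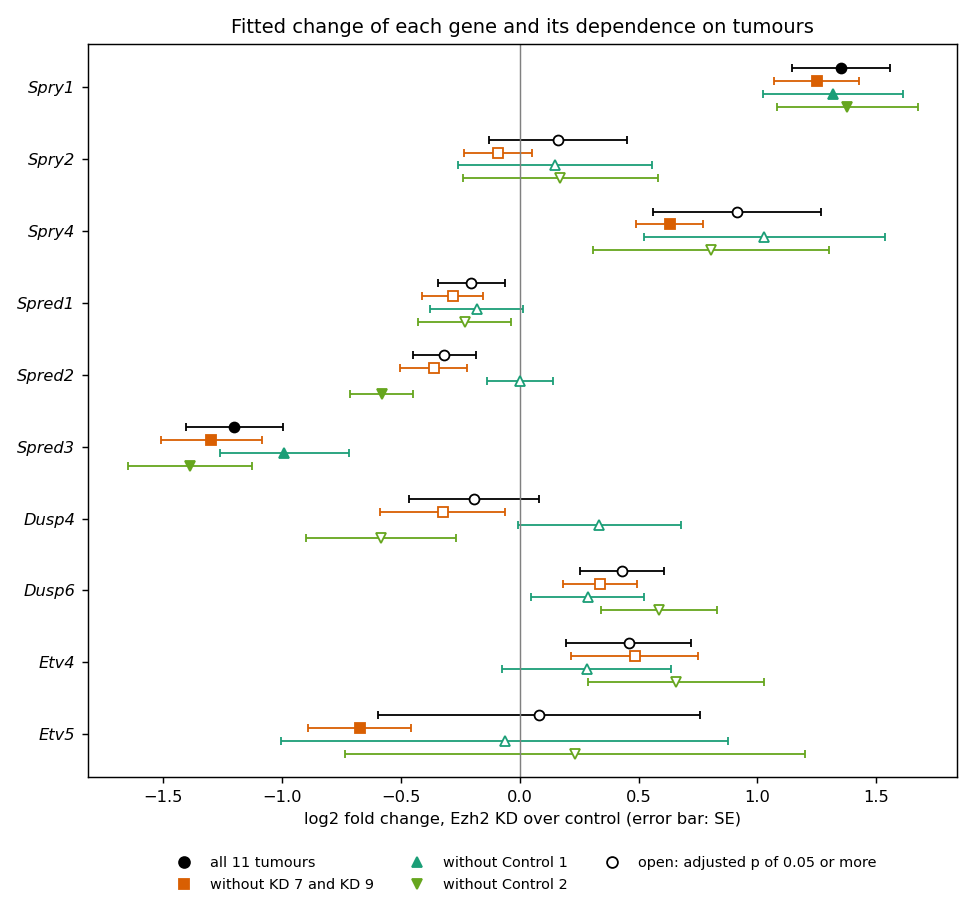
Fitted log2 fold change, Ezh2 KD over control, with its SE (horizontal axis) for each gene with all 11 tumours and with KD 7 and KD 9, Control 1 or Control 2 left out. Filled symbols have an adjusted p under 0.05. Spry1 and Spred3 stay filled in all 4 fits, Spry4 is filled only without KD 7 and KD 9, and Etv5 lies at 0.080 with all tumours and at -0.67 without those 2.

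Etv4 and Etv5 encode Ets transcription factors of the PEA3 group, which are transcribed when ERK is active. Etv4 had between 253 and 549 CPM in the KD tumours, with a median of 318 CPM, against 229 and 298 CPM in the controls. KD 1 to KD 4 had 363 to 549 CPM and KD 5 to KD 9 had 253 to 318 CPM, so that the groups overlapped through KD 6 and KD 8. For Etv4 the log2 fold change was 0.46 ± 0.26 (SE, adjusted p = 0.23).

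Etv5 varied most. The gene (ENSMUSG00000013089) spans bases 22381382 to 22439792 of chromosome 16 in mm9. It had between 161 and 1067 CPM in the KD tumours, with a median of 207 CPM, against 279 and 343 CPM in the controls. KD 9 with 1067 CPM and KD 7 with 499 CPM were higher than both controls, KD 1 lay between the controls at 299 CPM, and the other 6 KD tumours were lower than both at 161 to 223 CPM. With all tumours the log2 fold change was 0.080 ± 0.68 (SE, adjusted p = 0.94). Without KD 7 and KD 9 it was -0.67 ± 0.22 and passed (adjusted p = 0.038). In the 7 libraries with Xist reads it was -0.77 ± 0.15 (adjusted p = 0.010). KD 9 stood at 6.26 times, and KD 7 at 2.93 times, the median of the other 7 KD tumours for Etv5. For Spry4 the same ratios were 2.41 and 1.32, and for Spry2 they were 2.05 and 1.45. For Spry1, KD 9 was at 1.08 times and for Etv4 at 0.85 times that median.

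**Figure D3:**
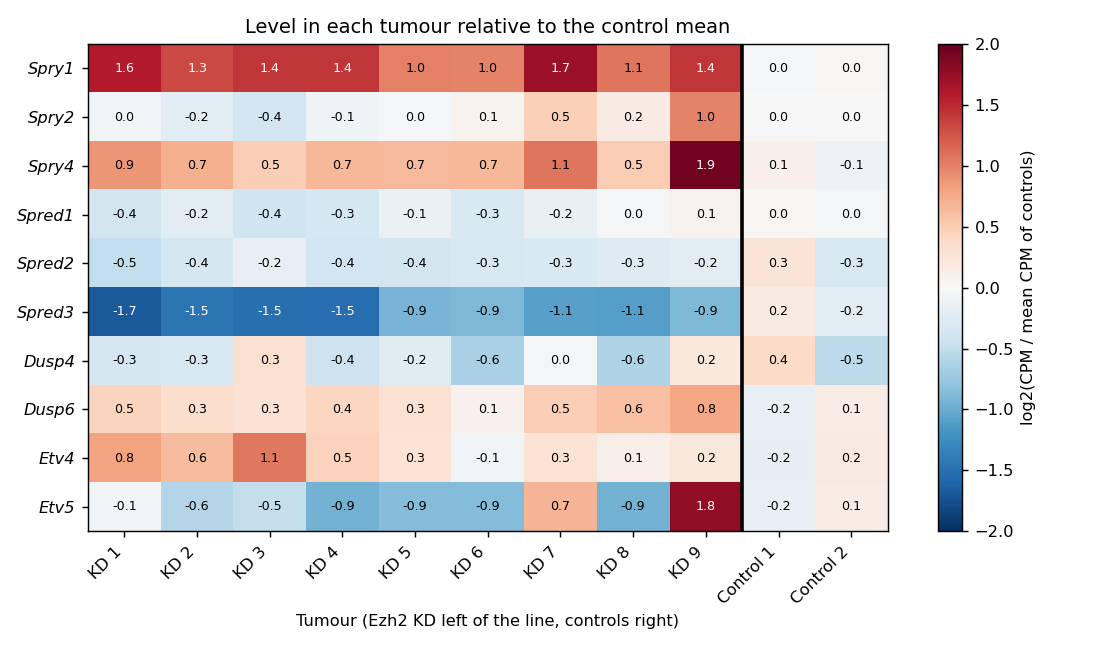
Level of each gene (rows) in each tumour (columns, Ezh2 KD left of the line and controls right), as log2 of its CPM over the mean CPM of both controls. Spry1 is above and Spred3 below the control mean in all 9 KD tumours, while Etv5 lies on both sides of it and is highest in KD 9.

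The order of the genes by median RPKM in the KD tumours was Dusp6 (257), Spry4 (150), Spry1 (148), Etv4 (103), Dusp4 (95.5), Spred1 (84.6), Spry2 (73.8), Etv5 (50.6), Spred2 (27.6) and Spred3 (14.1). Neighbours in that order overlapped in range over the 9 tumours, except Etv5 with Spred2 and Spred2 with Spred3. In the controls the mean RPKM was highest for Dusp6, at 191 ± 28.2 (SD, n = 2), followed by Dusp4 at 120 ± 52.1, while Spry1 had 55.1 ± 1.68. Lengths came from a later annotation than the one used for counting, so that levels between genes are approximate.

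Among the 9 KD tumours, 34 of the 45 pairs of feedback genes had a positive Pearson's r and 11 a negative one, with a median r of 0.36, and pairs share genes. Of the 45 pairs, 0 passed after adjustment over all pairs by Pearson's r or by Spearman's rho of log2(CPM + 1) (exact two-sided permutation over all pairings), and 9 had an unadjusted p under 0.05 by Pearson's r. Spry4 and Etv5 had the highest r, at 0.94 (exact permutation p = 0.0013, adjusted p = 0.058) with a rho of 0.70 (exact permutation p = 0.043, adjusted p = 0.24). Without KD 7 and KD 9, the tumours farthest from the median of Spry4, r was 0.58. The r of 0.89 between Spry2 and Spry4 (exact permutation p = 0.0070, adjusted p = 0.079, rho 0.48 at exact permutation p = 0.19) became 0.12 without the same tumours, and that of 0.83 between Spry2 and Etv5 became -0.44. Both of these relations of Spry2 thus rest on KD 7 and KD 9, and that of Spry4 with Etv5 does so in part. Spry2 with Spred1 had an r of 0.81 (exact permutation p = 0.0069, adjusted p = 0.079) and a rho of 0.78 (exact permutation p = 0.017, adjusted p = 0.24). Its r was 0.61 without KD 7 and KD 9. Spred3 and Etv4 ran opposite, with an r of -0.84 (exact permutation p = 0.0045, adjusted p = 0.079) and a rho of -0.78 (exact permutation p = 0.017, adjusted p = 0.24). Without KD 1 and KD 4, the farthest from the median of Spred3, their r was -0.88, but KD 1 to KD 4 and KD 5 to KD 9 form separate clusters in both genes, too few in each for a relation within them.

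Against Ezh2, 0 of the 10 genes passed after adjustment by either measure, and 1, Dusp4, had an unadjusted p under 0.05. Its r with Ezh2 was 0.73 (exact permutation p = 0.026, adjusted p = 0.26), its rho 0.62 (exact permutation p = 0.086, adjusted p = 0.49), and its r without KD 3 and KD 9, the tumours with the most Ezh2, 0.15. Without KD 7 and KD 9 the r of Dusp4 with Ezh2 was 0.90 over 7 tumours (exact permutation p = 0.0081, adjusted p = 0.056). Over the same 7 tumours the r of Spry2 was -0.86, against 0.034 over all 9, and that of Etv4 was 0.85, against 0.58 over all 9, each with an adjusted p of 0.056 by exact permutation. The relations with Ezh2 thus moved with the tumours left out.

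**Figure D4:**
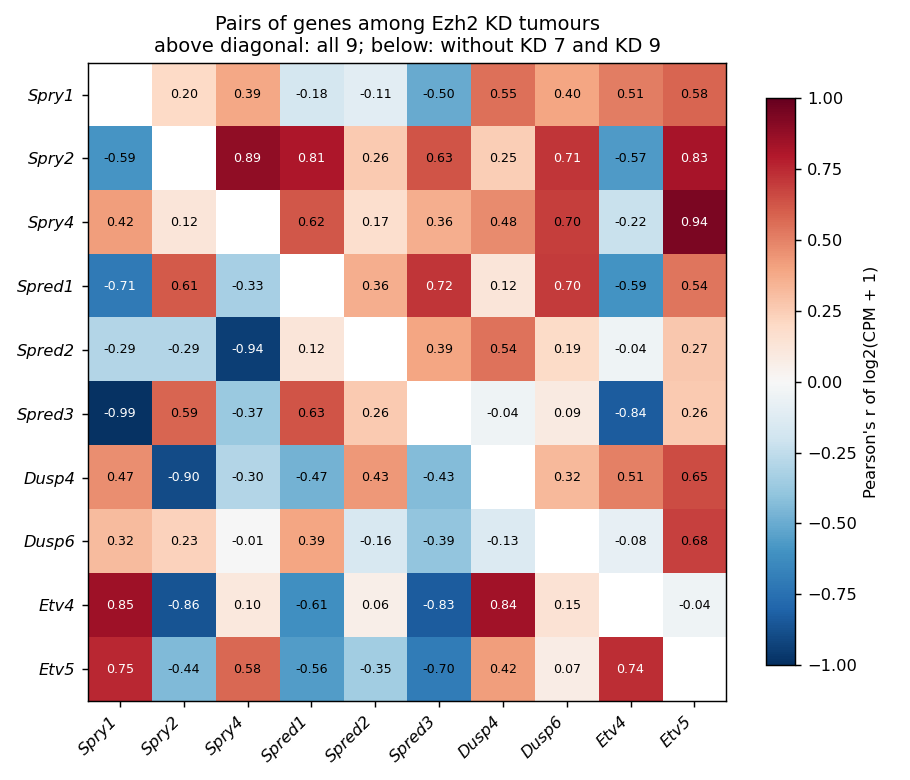
Pearson's r of log2(CPM + 1) for each pair of feedback genes (rows and columns) over all 9 Ezh2 KD tumours above the diagonal and over 7, without KD 7 and KD 9, below it. Spry4 with Etv5 is at 0.94 above the diagonal and 0.58 below, and Spry2 with Etv5 turns to -0.44 below it.

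The genes most like 3 of the feedback genes over the 9 KD tumours were chosen by Pearson's r among 11306 tested genes and are a description. The 3 most like Spry4 were Kit, a receptor tyrosine kinase gene (r = 0.99), Clic5 (0.99) and Trim62 (0.98). Kit had 73.1 CPM in KD 9 and 27.3 CPM in KD 7, where the median of the 9 was 15.5 CPM, against 13.5 and 23.2 CPM in the controls. Without KD 7 and KD 9 the r with Spry4 was 0.88 for Kit, 0.76 for Clic5 and 0.86 for Trim62. The 3 most like Etv5 were Metrn, Fzd9, a Wnt receptor gene, and Shisa9, each with an r of 0.98. Without KD 7 and KD 9 the r with Etv5 was 0.87 for Metrn, 0.78 for Fzd9 and 0.88 for Shisa9. Fzd9 had 61.8 CPM in KD 9, where the median of the 9 was 2.95 CPM, against 3.85 and 32.1 CPM in the controls. Those most like Dusp6 were Tmem138 (0.97), Mapk8ip2 (0.94), whose product is a scaffold of the JNK kinases, and Dlgap1 (0.94). Without KD 7 and KD 9 their r with Dusp6 was 0.93, 0.88 and 0.96. The tumours left were also used to choose all these genes, so that no r without KD 7 and KD 9 is an independent check. Some of the genes were low, with a KD median of 1.58 CPM for Shisa9, 3.08 CPM for Mapk8ip2 and 4.45 CPM for Dlgap1.

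The other genes of the pathway were read against all tested genes, of which 23.3% were called, 10.3% higher and 13.0% lower, with a median log2 fold change of 0.066. Of 24 genes of the core cascade 23 were tested, of which 1 was called higher and 4 lower, a share of 21.7%, close to that of all tested genes. The median log2 fold change of this list was -0.18. Lamtor3, a scaffold of MEK, rose 1.45-fold (adjusted p = 0.020). Nras, which encodes a RAS protein, fell 1.75-fold, with 102 to 144 CPM in the KD tumours, against 209 and 192 CPM in the controls (log2 fold change -0.80 ± 0.12 SE, adjusted p = 0.00098). Sos2, an exchange factor that loads RAS with GTP, fell 1.61-fold (adjusted p = 0.0065), with 40.4 to 50.3 CPM in the KD tumours, against 88.7 and 57.1 CPM in the controls. Its controls differed, and its log2 fold change of -0.69 became -0.34 (adjusted p = 0.22) when Control 1 was left out and -0.97 (adjusted p = 0.0024) when Control 2 was.

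Of 24 other negative regulators 23 were tested, of which 1 was called higher and 5 lower, a share of 26.1%, against 23.3% of all tested genes, with a median of -0.071. Rasa1, which encodes a GTPase-activating protein that switches RAS off, rose 2.55-fold, to between 421 and 800 CPM in the KD tumours, against 266 and 254 CPM in the controls (log2 fold change 1.35 ± 0.24 SE, adjusted p = 0.0027). Rasa2, of the same enzyme class, fell 1.58-fold (adjusted p = 0.0064), and Dusp16, a phosphatase gene acting mainly on the stress kinases JNK and p38, fell 1.43-fold (adjusted p = 0.010).

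Of 22 other genes known as ERK outputs or their regulators, 2 were called higher and 4 lower, a share of 27.3%, against 23.3% of all tested genes, with a median of -0.12. The immediate early gene Egr1 rose 2.98-fold, to between 193 and 742 CPM in the KD tumours, against 101 and 103 CPM in the controls (adjusted p = 0.037). Ier2, of the same kind, rose 1.79-fold (adjusted p = 0.038), but it passed in 10 of 19 alternatives only and was lost with no filter on low counts (adjusted p = 0.0503) and without either control (adjusted p = 0.17 and 0.22). Hmga2, a chromatin protein gene, fell 2.59-fold (adjusted p = 0.0099), with 222 to 513 CPM in the KD tumours, against 1198 and 713 CPM in the controls, and the Ets factor gene Elk3 fell by 0.58 on the log2 scale (adjusted p = 0.0074).

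Upstream, 4 of 12 receptor tyrosine kinase genes were called higher and 1 lower, a share of 41.7%, against 23.3% of all tested genes, with a median of 0.59, against 0.066. Pdgfrb, a receptor for platelet-derived growth factor that pericytes also express, rose 4.67-fold, to between 145 and 621 CPM in the KD tumours, against 96.9 and 83.6 CPM in the controls (log2 fold change 2.22 ± 0.49 SE, adjusted p = 0.0082). Egfr, the epidermal growth factor receptor gene, rose 1.95-fold (adjusted p = 0.015), with 77.5 to 178 CPM in the KD tumours, against 71.1 and 56.8 CPM in the controls. Met, the hepatocyte growth factor receptor gene, fell 3.92-fold, with 11.3 to 96.0 CPM in the KD tumours, against 172 and 139 CPM in the controls (adjusted p = 0.014). The calls of these lists rested on both controls. Without Control 1 the core cascade had 0 higher and 1 lower, the other negative regulators 1 and 1, and the outputs and receptors 0 and 0. Without Control 2 the numbers were 0 and 3 for the cascade, 1 and 3 for the regulators, 0 and 2 for the outputs and 0 and 0 for the receptors. Rasa1 is the higher gene that passed in both. Of the pathway genes named here, Rasa1 alone passed in all 19 alternatives, Ier2 passed in 10, and the others in between 14 and 17.

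**Figure D5:**
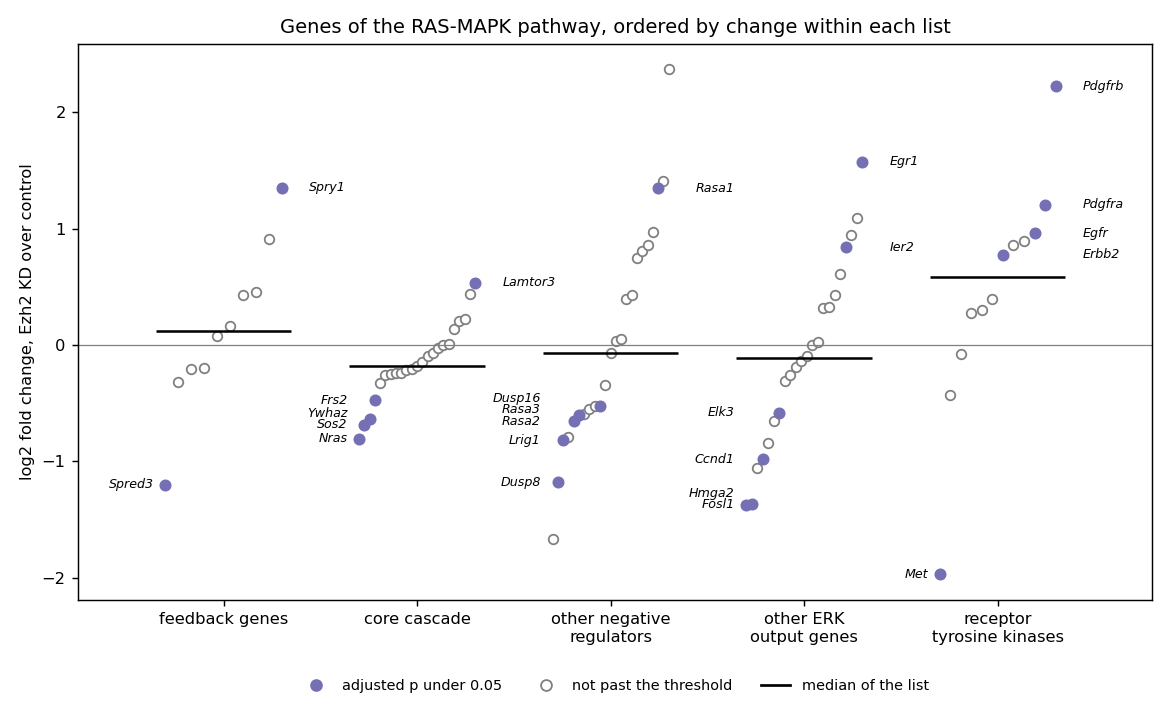
Fitted log2 fold change, Ezh2 KD over control (vertical axis), of each tested gene in the feedback genes and in 4 lists of the pathway, ordered by change within a list, with list medians as lines. Filled points have an adjusted p under 0.05, and they lie on both sides of 0 in each list.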

How the data were processed

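Per the labels' protocols, TRIzol RNA of 11 tumours went through TruSeq library preparation and HiSeq2000 sequencing. The deposited table holds whole-number counts of reads per Ensembl gene, without normalization. TopHat 1.4.0, HTSeq and the build mm9 are named in the submitters' processing notes, with no role, setting, strand or read filter stated there. No other gene model of the table overlapped a feedback gene.

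Groups came from the sample titles. The test was that of edgeR 4.0.16 (R 4.3.3): filterByExpr, TMM, estimateDisp, glmQLFit and glmQLFTest over all 11 libraries without covariates, with Benjamini-Hochberg adjustment over 16241 genes and a threshold of 0.05. SE was taken as log2 fold change over the root of F, and levels are TMM-scaled CPM. Merged exon lengths for RPKM came from GENCODE M21 (GRCm38), and start regions from RefSeq (GRCm38.p6). No replicate pair was a copy of another, with chi-square at least 11.2 for each degree of freedom. The edgeR step was tested on simulated counts. Alternatives were RLE size factors, no filter, DESeq2 1.42.0, limma-voom (limma 3.58.1), a test against a 1.5-fold change, the replicate number as a block, and leaving out libraries. Relations among tumours used exact permutation of 9 values.

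The feedback genes and the pathway and marker lists were chosen with earlier results of these data known, and the wider Capicua octamers after the start regions had been seen. By rule, the text names each feedback gene and, per list, up to 2 genes with the smallest p in each direction. Of the listed pathway symbols, Hras was matched through its identifier and Spry3 was not matched. Some values are not reported here.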

Additional observations from a re-analysis of the deposited data

Results flagged for a closer look

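The values of 2 genes stood far from the rest of their group of 9 KD tumours, by the gap to the nearest tumour over the range of the group, where about 1 group in 20 does so by chance. Both belong to KD 9. Spry4 was at 1715 CPM in KD 9, with a gap of 0.714 of the range to KD 7. Etv5 was at 1067 CPM in KD 9, with a gap of 0.627 of the range, again to KD 7. The summed endothelial and pericyte markers were also highest in KD 9, at 555 CPM, with KD 1 next at 524 CPM and KD 7 at 373 CPM. Among KD tumours, KD 7 was highest and KD 9 next for macrophage and microglia markers (1102 and 934 CPM). The same held for precursor markers of the oligodendrocyte lineage (311 and 244 CPM). In the other marker lists the highest KD tumour was neither KD 7 nor KD 9. The part of any of these populations in both values was not tested.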

How the results depend on the processing

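Spry1 and Spred3 kept their direction and passed in all 19 alternatives, Spry1 with log2 fold changes between 1.22 and 1.45 (adjusted p at most 0.043) and Spred3 between -1.56 and -0.99 (adjusted p at most 0.0499). The other feedback genes passed in few: Spry4 in 4 alternatives, Etv5 in 2 and Spred2 in 1. The count of feedback genes called higher was 2 under DESeq2, without KD 7 and KD 9 and in the 7 libraries with Xist reads, and between 1 and 2 with single tumours left out. The count called lower was 2 without KD 7 and KD 9 and in the libraries with Xist reads, and between 1 and 2 with single tumours left out. Etv5 turned to -0.25 under limma-voom, -0.31 with the replicate block, -0.67 without KD 7 and KD 9, -0.77 in the libraries with Xist reads, and as low as -0.39 with single tumours left out (-0.039 without KD 7, -0.064 without Control 1), against as much as 0.23 without Control 2. Spry2 turned to -0.13 with the block, -0.091 without KD 7 and KD 9 and -0.15 in the libraries with Xist reads. Without Control 1, Dusp4 turned to 0.33 and Spred2 to 0.00046, while without Control 2 both were at -0.58. Over all genes, 450 were higher and 709 lower against a 1.5-fold change, 362 and 324 with the replicate block, and between 387 and 1957 higher and between 903 and 2418 lower with single tumours left out, where the lowest counts came without Control 1 and 558 and 1192 without Control 2. With 1 control left, that tumour is assumed to vary like the others. The replicate numbers pair only tumours 1 and 2, whose deviations from the group means correlated at -0.15 and 0.01. With 2 controls the deviations of Control 1 and Control 2 mirror each other, so that these values cannot show whether tumours of the same number shared a preparation. Without KD 7 and KD 9, 1 of 45 pairs of feedback genes passed, Spry1 with Spred3 at an r of -0.99 (7 tumours, exact permutation p = 0.00040, adjusted p = 0.018), in which KD 5, KD 6 and KD 8 stand apart from KD 1 to KD 4 in both genes. The causes of these shifts were not tested. With 2 controls, the spread between control tumours limits every comparison.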

Other observations

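Spred3 and Etv4 split the KD tumours into the same 2 sets, for which the labels give no reason. KD 1 to KD 4 had Spred3 at 58.3, 68.2, 66.2 and 65.0 CPM and Etv4 at 459, 409, 549 and 363 CPM. KD 5 to KD 9 had Spred3 at 98.7, 100.1, 88.5, 87.4 and 101 CPM and Etv4 at 318, 253, 318, 285 and 308 CPM. The ranges of these 2 sets of tumours do not overlap in either gene. They do not overlap in Spry2 either, though narrowly. It had 121 to 152 CPM in KD 1 to KD 4 and 154 to 312 CPM in KD 5 to KD 9. In the other feedback genes the ranges overlapped. The sets were noticed from the values of Spred3 and Etv4, so that no test was made. Spry2 is no separate sign of these sets, since it ran with Spred3 (r = 0.63) and against Etv4 (r = -0.57) over the 9 KD tumours. How many of all tested genes split in this way was not counted, so that the splits cannot be read as particular to the feedback genes. Mitochondrially encoded genes took 5.32% to 13.5% of the counts in KD 1 to KD 4 and 3.43% to 12.2% in KD 5 to KD 9, against 4.28% and 5.45% in the controls.

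Errfi1, which encodes a feedback inhibitor of the epidermal growth factor receptor and was singled out after its values were seen, had 392 to 1049 CPM in the KD tumours, against 382 and 325 CPM in the controls, and did not pass the test (log2 fold change 0.86 ± 0.32 SE, edgeR adjusted p = 0.070).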
